A study of Bos taurus with 16 samples.

Results

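The cytokine, chemokine and innate immune genes of bovine endometrium were described by their DNA methylation. Members were the autosomal sites whose gene symbol began with IL, TLR, IRF, CD, CCL, CCR, CXCL or CXCR and a digit, or with TNF, IFN or NLR, without the B cell receptor genes CD79A and CD79B. The rule found 917 of 199395 sites, in 114 of 10781 genes, on 26 chromosomes. It used gene names only and no methylation value. Another 11 sites of the symbols CD99 and CD99L2 lay outside the autosomes and were not members.

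Reduced representation bisulfite sequencing (RRBS), which reads MspI fragments rich in CpG dinucleotides, had been run on DNA of endometrial cells of multiparous Holstein-Friesian cows. Cows were inseminated artificially between days 50 and 64 postpartum, and a cytobrush took the cells 4 to 8 h later. The cows received a control diet (CON) or, from day 12 postpartum, rumen-protected methionine (MET), and were grouped by whether that insemination led to pregnancy (P) or to no pregnancy (noP). The groups CON_P, CON_noP, MET_P and MET_noP held 4 libraries each, 16 in all, numbered here in the order of the table's columns. The study's methods list more brush samples than libraries, and more of them in the non-pregnant groups, but not how many cows stand behind a library, so an SD over libraries need not measure the spread over cows, and outcome was observed and not assigned. The value of a site is its methylation level, the percent of reads methylated there. The read depth behind a single site is unknown beyond a minimum count that the methods set. On average, the study reports the most raw reads and CpG calls per library in MET_P and the fewest in CON_P. The authors dropped positions with a value of zero, and none is left in the table, so that sites without methylation in any 1 library are missing and every level and share given here is one over the sites that remained.

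Cytokines and chemokines are the secreted signals of immune cells, epithelium and stroma, and the interleukin, TNF, chemokine and interferon receptors carry those signals into the cell. Toll-like and NLR receptors sense microbial and damage products, and interferon regulatory factors act downstream of both. In ruminant endometrium such genes serve the clearance of bacteria after calving and insemination, the tolerance of the semen and the embryo, and the response to the conceptus interferon, which acts through the type I interferon receptor. Methylation of CpG sites near a gene's start is often low in active genes, but a methylation level does not measure expression.

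Of the 917 member sites, 164 (17.9%) had a mean level below 20%, 433 (47.2%) a mean above 80% and 320 (34.9%) a mean between, against 15.8%, 54.5% and 29.7% of 121988 autosomal sites with a gene. By gene mean, 24 of the 114 members (21.1%) lay below 20%, 47 (41.2%) above 80% and 43 (37.7%) between. The same shares of 10412 autosomal genes were 29.1%, 32.4% and 38.5%. The median gene level was 70.8% among members and 61.7% among 10412 autosomal genes. Members held a median of 4 sites each, 14 genes with at least 15 sites held 467 of the sites, and 15 genes rested on 1 site and were not tested as genes. The SD within groups had a median of 6.72 percentage points over member sites and 5.58 over autosomal sites with a gene. Over genes with at least 2 sites it was 3.52 percentage points for the 99 members and 2.95 for all 8719.

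Secreted interleukins were mostly highly methylated, with 5 of 7 genes above 80%. IL27, a cytokine of antigen-presenting cells, had the highest level at 95.98%, and IL9 the lowest at 47.6%. IL34, a ligand of the colony-stimulating factor 1 receptor, had most sites of the role (32), 28 of them above 80%, and IL17D followed with 30 sites and a mean of 84.2%. IL10, which restrains inflammation, held 2 sites 22 bp apart at chromosome 16, 4551826 and 4551848, with means of 92.3% and 55.0%.

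Interleukin receptors covered the whole scale, with 5 of 20 genes below 20% and 8 above 80%. The receptor subunits IL12RB2 (8.63%), IL17RB (10.4%), IL4R (10.6%) and IL21R (17.8%) were low, while IL10RB (96.1%, 1 site), IL9R (95.4%) and IL22RA1 (92.4%) were high. IL1R1, the signalling receptor for IL-1, stood at 31.5% over 2 sites with an SD within groups that was among the largest of the members. IL6R had 3 sites, from 7.23% to 89.1%. IL17REL, a relative of the IL-17 receptors with 55 sites, averaged 74.1%.

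TNF receptors had a median level of 54.7%, against 85.7% for the interleukins, with 4 of 12 genes below 20% and 2 above 80%. TNFRSF21 (8.51%), also called death receptor 6, TNFRSF12A (12.1%, 17 sites), the receptor for TWEAK, and TNFRSF6B (16.6%, 16 sites), a decoy receptor, were low over nearly every site. TNFRSF1B, the second TNF receptor, had 94.4% at its 1 site, and TNFRSF19 averaged 58.3% over 21 sites from 8.11% to 98.5%. TNFRSF11A, the receptor RANK of the mammary gland and of bone, had 108 sites and a mean of 64.2%. The 4 TNF ligands ran from 59.9% in TNFSF9, the 4-1BB ligand, to 86.1% in TNFSF13, also known as APRIL. The B cell factor TNFSF13B had the largest SD within groups of the 99 members at 18.5 percentage points, on 2 sites. Among TNF-induced genes, TNFAIP8 (5.16%, 1 site) was lowest and TNFAIP3, the A20 inhibitor of NF-κB signalling, was highest at 93.4% over 8 sites.

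The chemokine CXCL16, a membrane-bound ligand of CXCR6, was lowly methylated over its 3 sites (7.08%). By contrast, CCL22 (91.3%), CCL3 (93.3%) and CXCL14 (95.0%) were highly methylated on average. CXCL12, a stromal chemokine, combined 4 sites below 20% with 9 above 80%. Among chemokine receptors, CCR3 held 10 sites that were all above 80% (98.2%), CCR6 25 sites at a mean of 82.8% and CCR10, the lowest, 6 sites at 49.4%. TLR2, a sensor of bacterial lipoproteins, had 9.71% at its 1 site, and TLR9, which senses unmethylated CpG DNA, 85.6% over 10 sites. Of 7 NLR genes 4 were above 80%, led by the inflammasome gene NLRP3 (95.1%), with NLRP5, a gene of the oocyte, at 84.9% over 20 sites and NLRP1 lowest at 45.5%.

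The 2 interferon receptor genes differed, with IFNAR2, a chain of the type I receptor, at 10.1% and IFNGR2, a chain of the interferon gamma receptor, at 92.3%. They lie with IL10RB in 1 gene cluster on chromosome 1, where the sites of IFNGR2 and IL10RB are 152549 bp apart and those of IL10RB and IFNAR2 92380 bp. IFNAR1, IFNGR1, TLR4 and IL6ST match the rule but had no member site, so they were not analysed here. Interferon regulatory factors ranged from IRF7 (8.47%), the factor of type I interferon induction, to IRF8 (89.9%, 14 sites), a factor of myeloid cells. IRF4, a lymphocyte factor with 15 sites, averaged 38.0%. IRF2BPL, by name an IRF2 binding protein and not an interferon regulatory factor, averaged 13.5% over 14 sites.

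Most CD-named genes encode surface proteins of diverse function, while CD2AP and CD2BP2 match the rule by name only and are not surface proteins. Of the 36 genes, 8 were below 20% and 15 above 80%. The ectoenzyme CD38 was lowest (6.32%) and CD47, an inhibitor of phagocytosis, highest (98.1%). The neighbouring T cell genes CD6 (96.2%) and CD5 (96.9%) were both high, and the neighbouring CD8A (11.6%) and CD8B (23.2%) both low. Among the tetraspanins, CD9 was low (17.1%), while CD151 (54.5%, 20 sites), CD81 (56.7%, 15 sites) and CD82 (58.3%, 23 sites) each combined lowly and highly methylated sites.

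**Figure D1:**
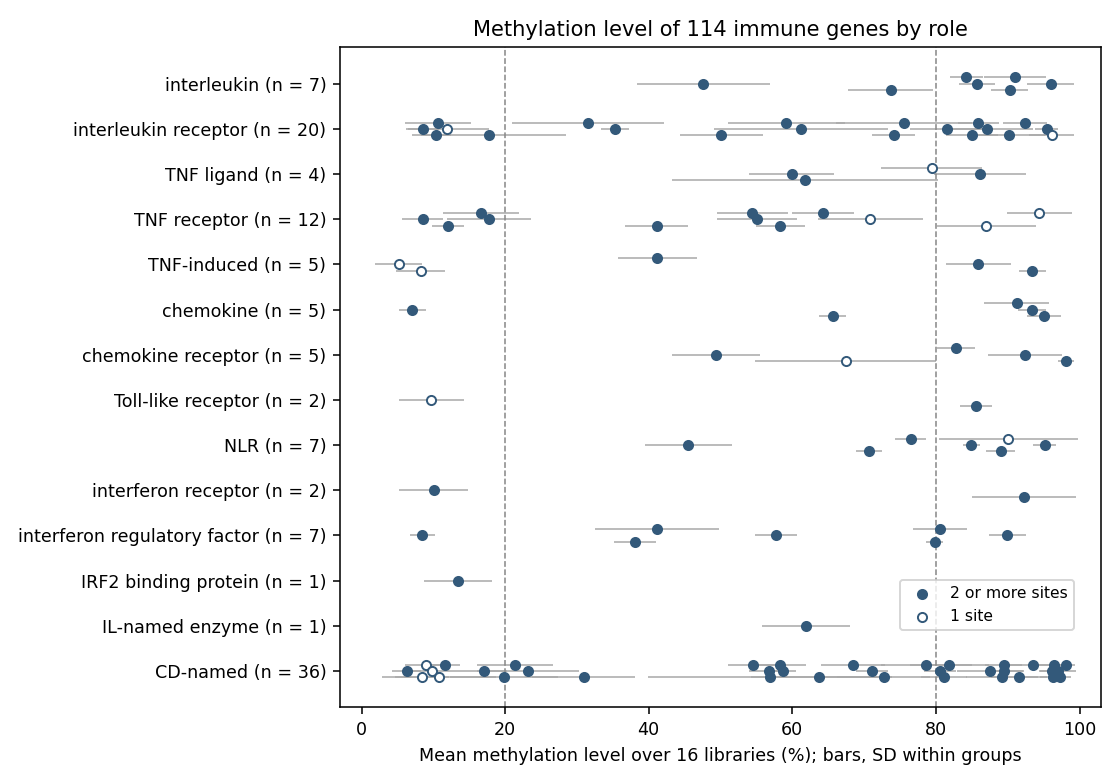
Mean methylation level in percent (x axis) of each of 114 member genes (points), by role (y axis), with bars for the SD within groups, open points for genes of 1 site and dashed lines at 20% and 80%. Interleukins and NLR genes sit mostly at the right, while receptors, interferon regulatory factors and CD-named genes spread over the scale.

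Sites of 1 gene that followed each other within 300 bp were joined to stretches, which gave 220 stretches, and 46 genes had more than 1. Levels along a gene often ran from lowly to highly methylated. In TNFRSF11A (chromosome 24, 60733410 to 60789346), 9 stretches had group means between 53.4% and 98.3% except for one of 18 sites at 60762391 to 60762565, where the 4 group means were 14.4% (CON_P), 11.6% (CON_noP), 17.995% (MET_P) and 20.7% (MET_noP). Single libraries spread from 5.58% to 36.02% there, and the groups overlapped. IL17REL (chromosome 5) stayed above 90% in its first 3 stretches and reached its lowest level at 119388636 to 119388663, with means of 31.3%, 19.2%, 17.9% and 29.1% in the same order. IRF4 (chromosome 23) went from 51.4% to 67.0% over 3 sites at 52210475 to 52210513, through 92.1% to 94.1% at 52216241 to 52216252, to 11.2% to 14.3% over 9 sites at 52217842 to 52218193. Exon, intron and promoter positions were not used here.

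IL4I1, which encodes a secreted amino acid oxidase of antigen-presenting cells, had 70 sites in 1 stretch of 875 bp (chromosome 18, 56235270 to 56236144). Site means ran from 15.1% to 98.99%. The libraries had gene means of 50.1%, 61.8%, 61.8% and 63.3% in CON_P, of 51.8%, 58.7%, 62.1% and 62.7% among the CON_noP libraries, of 57.9%, 60.6%, 68.6% and 71.9% in MET_P, and in MET_noP of 55.1%, 67.3%, 68.1% and 68.6%. The MET libraries were higher on average, but each group overlapped each other. At 65 of the 70 sites the mean of the MET groups was above that of the CON groups, by 5.74 percentage points over the gene. The difference was short of the limit (limma unadjusted p = 0.0556, adjusted p = 0.576). These sites lie on shared fragments and are not independent.

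**Figure D2:**
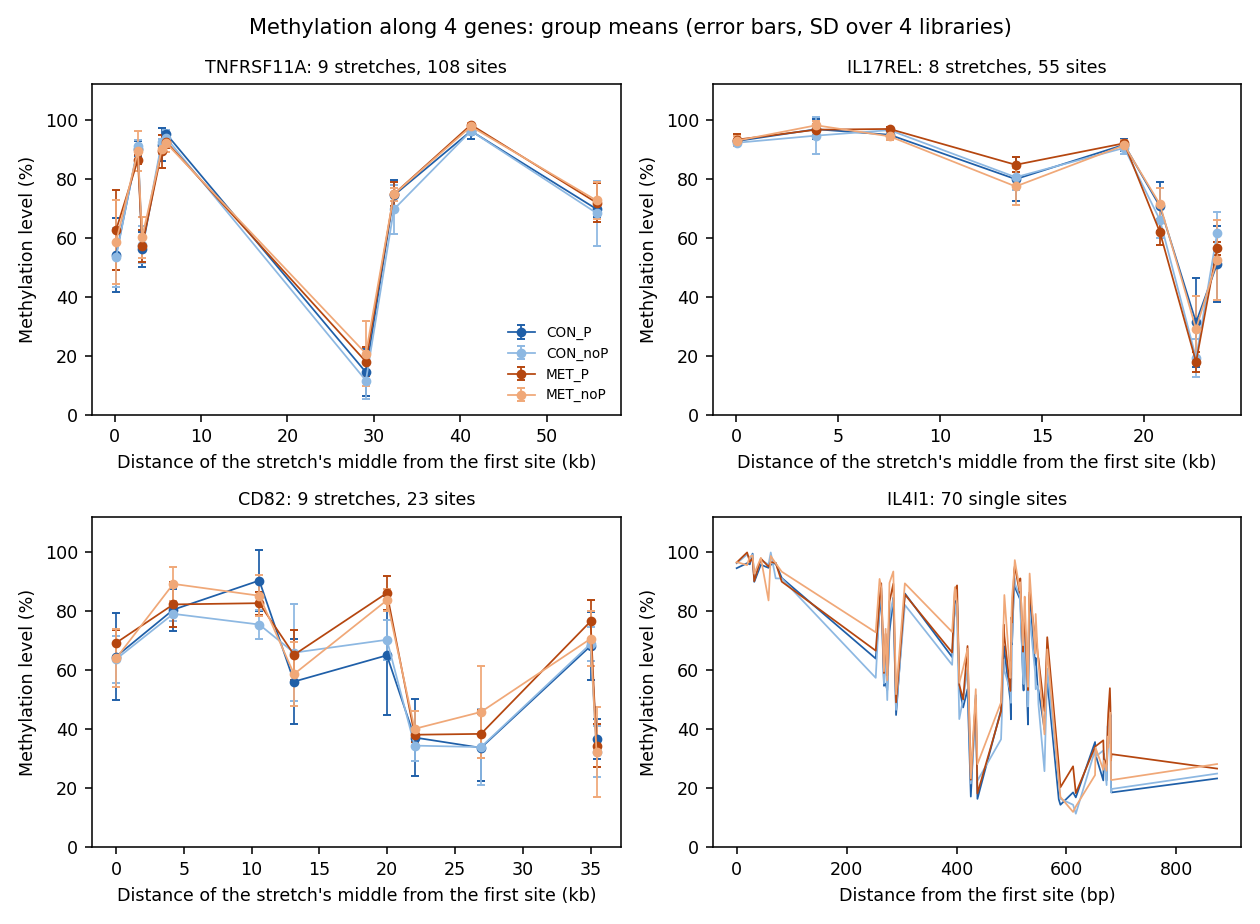
Methylation level in percent (y axis) along TNFRSF11A, IL17REL and CD82, as stretch means against the distance from the first site in kb, with bars for the SD over 4 libraries, and along IL4I1 as single sites against the distance in bp. All 4 groups show the low stretch in the middle of TNFRSF11A. In a stretch in the middle of CD82 both MET groups (86.2% and 83.8%) are above both CON groups (65.1% and 70.4%). Group means also differ at the lowest stretch of IL17REL and at single sites of IL4I1.

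Each site, and the mean of each gene with at least 2 sites, was compared between groups with limma on M values, which are log2 ratios of the methylated to the unmethylated share. The study had tested sites by logistic regression and reported differentially methylated sites in each of the 4 pairwise comparisons of these groups. That test could not be rerun on a table without read counts. With limma, 0 sites and genes passed a Benjamini-Hochberg adjusted p of 0.05 in any comparison (0% of 199395 sites and 0% of 8719 genes). No member passed either. The lowest adjusted p of a member site was 0.158 and that of a member gene 0.505. Counts at an unadjusted p of 0.05 are therefore given as a description, beside the share of all sites or genes at the same limit. The 4 comparisons share groups in pairs (CON_P, CON_noP, MET_P and MET_noP each enter 2 of them), so their values are not independent of each other. Sites of 1 gene were read in the same libraries and, when close, can lie on shared fragments. Counts of its sites in 1 direction, given below, are thus not independent evidence.

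As libraries, the 16 differed little over the members. The mean over the 114 gene means was 60.7% ± 0.80 (SD, n = 4) in CON_P, 60.9% ± 1.05 among the CON_noP libraries, 61.9% ± 0.30 in MET_P, and in MET_noP 60.9% ± 0.90, against 53.7% ± 0.86, 53.2% ± 0.69, 54.3% ± 0.23 and 54.0% ± 0.53 over all autosomal genes. By gene means, the 4 MET_P libraries (61.71% to 62.3%) were above the 4 CON_P (59.5% to 61.2%) and the 4 MET_noP libraries (59.6% to 61.67%), the latter with next to no gap. Over all autosomal genes these groups overlapped, and so they did over the 917 member sites (65.01% to 67.7% in MET_P, 61.6% to 65.03% in CON_P and 64.6% to 66.8% in MET_noP).

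Marker genes of the cell types that a cytobrush can collect were measured beside the members, since in bulk DNA a change in the cell mix and a change within cells cannot be told apart. Over gene means, the 15 epithelial genes averaged 27.3% and ran from 7.14% in CDH1 to 68.4% in ST14. Of these 15, 6 lay below 20% and 0 above 80%. The 6 stromal genes averaged 36.7%, with VIM, PDGFRA and HAND2 below 20%, COL1A2 at 66.8% and COL1A1 at 89.1%. The 21 leukocyte genes averaged 60.2%, with none below 20% and 3 above 80%. Shares of cell types were not estimated. The leukocyte list ran from 56.2% to 64.3% over the CON_P libraries, from 59.6% to 61.0% among the CON_noP libraries, from 60.61% to 61.96% in MET_P, and in MET_noP from 57.8% to 60.56%. The epithelial list ran from 22.3% to 33.2% in CON_P, from 24.7% to 30.7% among the CON_noP libraries, from 23.0% to 28.5% in MET_P, and in MET_noP from 20.3% to 36.4%. Only the leukocyte list in MET_P and MET_noP did not overlap, among the 3 lists and 4 comparisons, and by next to no gap. Over sites in place of genes, that list overlapped too.

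Under the control diet, IL17RA was the 1 member gene higher and IL2RA the 1 lower in CON_P without overlap of the libraries (1.01% of 99 each, against 1.24% and 0.711% of all genes). That is near the share of all genes, and neither gene passed after adjustment. IL2RA encodes the alpha chain of the IL-2 receptor, a marker of regulatory and activated T cells, and IL17RA the subunit that the receptors of several IL-17 cytokines share. By count, 3 of 99 member genes were higher in CON_P than in CON_noP (3.03%, against 2.16% of all genes) and 4 lower (4.04%, against 1.34%). Of the sites, 20 were higher (2.18%, against 2.53%) and 17 lower (1.85%, against 1.40%). Single libraries moved these counts, from 7 genes to 12 without CON_P library 4 and to 11 without CON_P library 1, and from 37 sites to 57 without CON_P library 4.

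IL2RA was measured at 3 sites (chromosome 13, 17455428 to 17455454). Its level was 61.7%, 68.4%, 69.3% and 75.0% in the CON_P libraries, and 79.4%, 85.9%, 88.5% and 88.9% in the CON_noP libraries. Every CON_P library was below every CON_noP library, by 17.1 percentage points on average (M difference -1.42, SE 0.27, limma unadjusted p = 0.000685, adjusted p = 1). The two-sided exact permutation test over the 70 splits gave p = 0.0286, the smallest it can give. Every gene without overlap of the libraries gets this value, so here and below it adds nothing to the separation. All 3 sites were lower in CON_P.

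IL17RA had 7 sites in 3 stretches (chromosome 5, 108815857 to 108822137). It stood at 86.3%, 88.1%, 89.2% and 89.4% in CON_P and at 82.6%, 83.3%, 83.8% and 84.1% in CON_noP. The CON_P libraries were all higher, by 4.74 percentage points (limma unadjusted p = 0.00316, adjusted p = 1, exact permutation p = 0.0286). The difference lay in the middle stretch of 2 sites at 108819349 to 108819365, with means of 65.1% and 48.6%, while the outer stretches were above 90% in both groups.

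Of the other genes past the limit, TNFRSF21 (5.88% ± 2.02 against 10.3% ± 2.09), CD6 (94.6% ± 1.56 against 97.3% ± 1.04), a T cell receptor for adhesion, and the costimulatory ligand CD80 (93.7% ± 3.05 against 97.8% ± 1.92) were lower in CON_P. IFNGR2 (97.2% ± 2.20 against 91.5% ± 4.06) and IL17RB (11.9% ± 2.02 against 8.59% ± 1.83), which binds IL-17B and IL-25, were higher. TLR9, the gene next in order among the higher ones, had 88.9% ± 3.58 and 85.4% ± 1.43 and did not pass the limit, and its M difference turned negative when the median over its sites was taken. The libraries of these 6 genes overlapped between the groups.

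At single sites, the largest evidence came from sites near full methylation. A site of IL18RAP, a subunit of the IL-18 receptor (chromosome 11, 7222663), was at 100% in all 4 CON_P libraries and at 92.3%, 93.1%, 95.8% and 96.7% in CON_noP (adjusted p = 0.209). A CXCL12 site (chromosome 28, 45041674) was at 97.7%, 100%, 100% and 100% in CON_P and at 88.2%, 91.4%, 92.3% and 92.9% in CON_noP (adjusted p = 0.289). Both groups were separate at both sites, but the differences of 5.52 and 8.21 percentage points lie next to the upper end of the scale. A TNFRSF11A site at 60738877 (98.8% against 85.4%) was higher in CON_P, and sites of IL22RA1 (chromosome 2, 128778433, 94.8% against 99.6%), IL34 (chromosome 18, 1516046, 81.9% against 94.3%) and CD80 (chromosome 1, 64315660, 92.3% against 99.2%) were lower. With an offset of 0.1 in place of 1 percentage point in the M value, the IL18RAP site passed an adjusted p of 0.05.

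Under methionine, libraries of pregnant cows had higher methylation of TLR9, CD247, IL17RB, TNFSF9 and CD177 and lower methylation of IL10, without overlap between the groups (5.05% higher and 1.01% lower, against 2.42% and 1.02% of all genes). The leukocyte marker list was also higher in MET_P without overlap by gene means (61.5% ± 0.63 against 59.1% ± 1.14), and its part in the result was not tested. CD247 is the zeta chain of the T cell receptor complex, and CD177 a surface glycoprotein of neutrophils. In all, 8 member genes were higher in MET_P than in MET_noP (8.08%, against 3.67% of all genes) and 3 lower (3.03%, against 1.92%). Of the sites, 31 were higher (3.38%, against 2.57%) and 18 lower (1.96%, against 2.55%). Without MET_P library 3 or 2 the 11 genes became 6 or 7, and without MET_noP library 2 the 49 sites became 74.

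TLR9 was read at 10 sites over 132 bp (chromosome 22, 48679818 to 48679950). Its level was 84.8%, 85.1%, 87.3% and 87.6% in MET_P and 79.7%, 82.0%, 82.8% and 82.9% in MET_noP. The groups did not overlap, at a difference of 4.33 percentage points (M difference 0.45, SE 0.13, limma unadjusted p = 0.00808, adjusted p = 0.810, exact permutation p = 0.0286), and all 10 sites had the higher mean in MET_P. In the CON groups 6 of the 10 sites had the higher mean with pregnancy.

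IL10 stood at 58.8%, 62.5%, 64.7% and 68.1% in MET_P and at 69.7%, 72.2%, 80.8% and 84.2% in MET_noP. Each MET_P library was below each MET_noP library, by 13.2 percentage points (M difference -0.93, SE 0.27, limma unadjusted p = 0.00885, adjusted p = 0.810, exact permutation p = 0.0286). CD247, with 8 sites on chromosome 3 from 1200339 to 1218200, stood at 90.1%, 90.7%, 92.2% and 96.1% in MET_P and at 77.8%, 80.01%, 84.5% and 89.9% in MET_noP (limma unadjusted p = 0.00985, adjusted p = 0.810). The groups were separate, with 90.1% and 89.9% in the closest libraries, and 7 of the 8 sites had the higher mean in MET_P.

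IL17RB had 2 sites (chromosome 22, 47066057 and 47066251). Its level was 11.3%, 11.6%, 13.3% and 15.98% in MET_P and 4.84%, 8.06%, 8.89% and 10.1% in MET_noP. The groups were separate at a low level (M difference 0.75, SE 0.23, limma unadjusted p = 0.0120, adjusted p = 0.810). The site at 47066251 had 12.7% ± 3.51 and 4.06% ± 1.31 (adjusted p = 0.887).

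TNFRSF1A, the main TNF receptor (59.9% ± 3.17 against 51.5% ± 5.34), the lysosomal tetraspanin CD63 (26.05% ± 5.86 against 18.9% ± 2.00) and CD6 (97.9% ± 1.07 against 95.2% ± 2.81) were higher in MET_P with overlapping libraries. IL16, a ligand of CD4 (87.1% ± 1.70 against 91.8% ± 2.55), and IRF4 (35.6% ± 1.40 against 40.8% ± 3.56) were lower, again with overlap. The IRF4 difference was largest in the first stretch, at 52.2% ± 3.23 and 67.0% ± 7.72. NLRP1 (43.2% ± 2.01 against 47.6% ± 2.46) was next among the lower genes and did not pass the limit.

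Among the sites, those of TNFRSF11A at 60739382 (99.2% against 94.8%) and TLR9 at 48679940 (98.6% against 93.8%) were higher in MET_P. A CD47 site (chromosome 1, 52759278) was at 100% in all 4 MET_noP libraries and at 97.2%, 97.8%, 98.5% and 98.5% in MET_P (adjusted p = 0.661). The groups were separate by 1.99 percentage points on average, and the site passed an adjusted p of 0.05 with the offset of 0.1. An IL17REL site at 119366105 (95.6% against 99.6%) and an IRF4 site at 52210475 (50.7% against 74.2%) were lower.

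Of the 4 comparisons, the one between the pregnant groups of both diets had the most member genes at the unadjusted limit. It set the group with the most raw reads against the group with the fewest, and the part of depth was not tested. MET_P was higher than CON_P in 14 member genes (14.1%, against 5.47% of all genes) and lower in 1 (1.01%, against 1.79%), which was IL10. Of these genes, 9 higher ones and 2 lower ones had separate libraries (against 3.07% and 0.734% of all genes), counting CCR6 and NLRP5, which missed the limit of p. Of the sites, 40 were higher (4.36%, against 3.06%) and 18 lower (1.96%, against 2.77%). The 15 genes became 8 without CON_P library 3, and the 58 sites became 95 without CON_P library 4.

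The genes higher in MET_P came from several roles. They were the CD-named CD6, CD74, CD80, CD82, CD177, CD247 and CD300A and the TNF-named TNFSF9, TNFRSF1A, TNFRSF21, TNFRSF25 and TNFAIP8L1. The others were the receptor subunit IL22RA1 and the interferon regulatory factor IRF2. Beside them, the leukocyte marker list averaged 61.5% ± 0.63 in MET_P and 59.9% ± 3.36 in CON_P over gene means, and the epithelial list 26.03% ± 2.44 and 27.7% ± 4.61, and their part in the result was not tested.

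IL10 was at 71.4%, 76.7%, 85% and 87.0% in CON_P, all above the MET_P libraries given above. It was lower in MET_P by 16.5 percentage points (M difference -1.22, SE 0.31, limma unadjusted p = 0.00376, adjusted p = 0.666, exact permutation p = 0.0286). The site at 4551826 alone had 88.0% ± 5.26 in MET_P and 97.9% ± 2.50 in CON_P.

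TNFSF9, a ligand that stimulates activated T cells, was at 65.1%, 65.1%, 66.3% and 72.2% in MET_P and at 45.8%, 53.5%, 60.03% and 60.6% in CON_P (chromosome 7, 17963863 to 17965110, 13 sites). The MET_P libraries were all higher, by 12.2 percentage points (M difference 0.73, SE 0.22, limma unadjusted p = 0.00965, adjusted p = 0.666, exact permutation p = 0.0286), and 12 of the 13 sites went that way. The exception was the lone site at 17965110, with 5.43% in MET_P and 9.36% in CON_P.

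CD74, the invariant chain that chaperones MHC class II, had 21.9%, 22.7%, 32.3% and 33.3% in MET_P and 10%, 13.3%, 16.8% and 20.6% in CON_P at 3 sites over 14 bp (chromosome 7, 61755410 to 61755424). The groups were separate by 12.4 percentage points (limma unadjusted p = 0.00682, adjusted p = 0.666). IL22RA1, the epithelial receptor subunit for IL-22, had 93.9%, 94.2%, 94.3% and 97.8% in MET_P and 83.3%, 88.5%, 90.6% and 93.1% in CON_P over 4 sites (adjusted p = 0.667). Both genes were thus separate at opposite ends of the scale.

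The death domain receptor TNFRSF25 had 44.1% ± 2.32 in MET_P and 37.3% ± 3.01 in CON_P, with separate libraries, and its difference lay in the stretch at 46906552 to 46906588 on chromosome 16 (91.3% and 76.9%) rather than the one at 46905123 to 46905237 (15.8% and 13.6%). The inhibitory receptor CD300A (86.3% ± 3.82 against 79.1% ± 4.01), TNFRSF1A (59.9% ± 3.17 against 51.5% ± 6.80) and IRF2 (82.7% ± 0.99 against 78.5% ± 2.70) were separate as well. NLRP5 (84.0% ± 1.09 against 86.5% ± 1.15), IL16 (87.1% ± 1.70 against 90.2% ± 2.84) and CCL3 (92.3% ± 1.29 against 94.3% ± 2.03) were next among the lower genes and did not pass the limit.

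Single sites with the lowest p among the higher ones were in CD247 (1212699, 93.1% against 75.0%), CD74 (61755424, 26.4% against 10.7%) and TNFSF9 (17963901, 81.7% against 62.2%). The lowest p of all member sites in this comparison belonged to IL17REL at 119385105 on chromosome 5, with 93.6%, 93.8%, 96.6% and 97.0% in MET_P and 99.1%, 100%, 100% and 100% in CON_P (adjusted p = 0.442). Its groups were separate by 4.53 percentage points. An IL34 site at 1516061 had 96.7% and 99.6%.

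Among cows that did not become pregnant, IL17RA was higher and IL2RA, CD163L1 and TLR9 were lower with methionine, without overlap (1.01% and 3.03%, against 2.87% and 0.883% of all genes). In MET_noP, 3 member genes were higher than in CON_noP (3.03%, against 4.75% of all genes) and 5 lower (5.05%, against 1.64%). Of the sites, 31 were higher (3.38%, against 3.36%) and 19 lower (2.07%, against 1.77%). Without MET_noP library 1 the 8 genes became 4, and without MET_noP library 2 the 50 sites became 85.

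IL2RA was at 45.3%, 73.5%, 76.0% and 79.2% in MET_noP, below the CON_noP libraries by 17.2 percentage points (limma unadjusted p = 0.0191, adjusted p = 0.748, exact permutation p = 0.0286). One MET_noP library lay far below the other 3. IL17RA, at 85.6%, 87.9%, 88.4% and 88.6% in MET_noP, was above every CON_noP library (limma unadjusted p = 0.00496, adjusted p = 0.709). TLR9 was lower by 3.54 percentage points and CD163L1, a scavenger receptor relative, at 90.7% ± 3.17 against 96.8% ± 2.55. IL2RA and IL17RA thus separated both MET_noP and CON_P from the same CON_noP libraries.

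TNFRSF21 (6.90% ± 1.65 against 10.3% ± 2.09) and the complement inhibitor CD59 (95.6% ± 1.37 against 97.1% ± 0.424) were lower, and CD82 (62.1% ± 2.73 against 54.7% ± 4.40) and TNFSF13 (89.98% ± 4.57 against 81.6% ± 7.61) higher, with overlap. TNFRSF12A (13.2% ± 2.26 against 10.2% ± 1.81) came next and did not pass the limit. The member site with the lowest adjusted p of all comparisons was in IRF5, a factor downstream of Toll-like receptors (chromosome 4, 92904291), with 100% in all 4 CON_noP libraries and 93.8%, 93.8%, 94.1% and 96.3% in MET_noP (adjusted p = 0.158). The groups were separate by 5.52 percentage points, and the site passed an adjusted p of 0.05 with the offset of 0.1. IL22RA1 (128778433, 95.99% against 99.6%) and CD226 (chromosome 24, 7313381, 87.8% against 95.2%) had lower sites, and CD81 (chromosome 29, 49209034, 92.4% against 70.9%) and IL4I1 (56235757, 85.6% against 59.97%, and 56235814, 79.1% against 53.6%) higher ones.

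**Figure D3:**
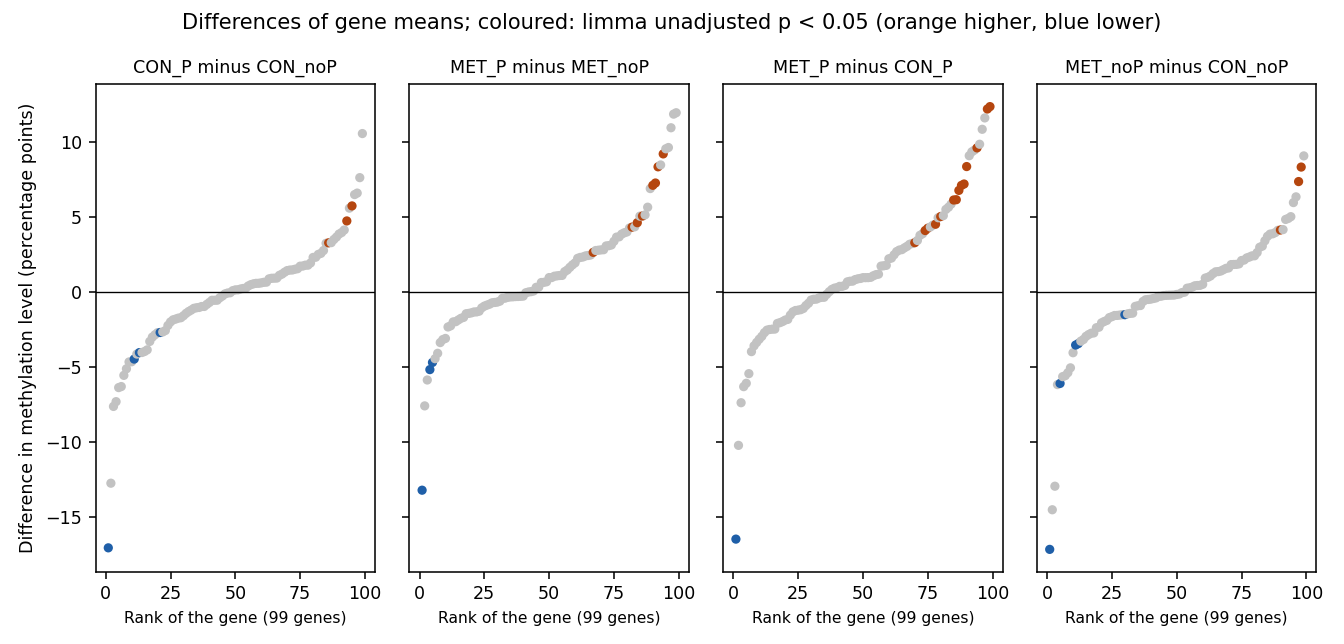
Difference in gene mean methylation in percentage points (y axis) of the 99 member genes with at least 2 sites, ranked within each of 4 comparisons (x axis), with genes at an unadjusted p below 0.05 coloured. The coloured genes are 3 higher and 4 lower, 8 and 3, 14 and 1, and 3 and 5 from left to right, and 0 pass the adjusted limit.

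Over both diets, 5 member genes passed the unadjusted limit for outcome and 0 after adjustment, of which IL17RB, TLR9 and CD9 were higher with pregnancy (3.03%, against 2.51% of all genes) and IL16 and CXCL16 lower (2.02%, against 0.837%). IL17RB was 4.18 percentage points higher (limma unadjusted p = 0.00118, adjusted p = 0.999). Its 8 libraries with pregnancy ran from 9.35% to 15.98% and its 8 without from 4.84% to 11.04%, so that they overlapped. CD9, a tetraspanin of epithelium, had 18.7% and 19.1% with pregnancy against 15.5% and 15.2% without, and CXCL16 5.87% and 6.31% against 7.86% and 8.28%, in CON and MET. IL1R1, CD47 and CD27 were next in order and did not pass the limit. Without MET_P library 2 the 5 genes became 8.

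Over both outcomes, 4 member genes passed the unadjusted limit for diet and 0 after adjustment, a smaller share than among all genes, with CD82, TNFSF9 and CD177 higher under methionine (3.03%, against 7.34% of all genes) and TLR9 lower (1.01%, against 1.42%). CD82, a tetraspanin known as a suppressor of metastasis, had 49.4%, 51.7%, 57.7% and 59.8% in CON_P, 49.3%, 54.3%, 55.2% and 60.01% among the CON_noP libraries, 60.5%, 60.9%, 61.4% and 64.4% in MET_P, and in MET_noP 58.1%, 62.5%, 63.7% and 64.0%. Of the 8 MET libraries 7 were above all 8 CON libraries, at a difference of 7.24 percentage points (M difference 0.42, SE 0.11, limma unadjusted p = 0.00127, adjusted p = 0.505). At 21 of its 23 sites, and in 8 of its 9 stretches, the MET mean was the higher one.

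The CD82 difference was largest in the stretch of 6 sites at 74673818 to 74673873 on chromosome 15. That stretch was at 48.1%, 48.3%, 76.0% and 88.0% in CON_P, at 61.1%, 69.6%, 75.0% and 75.8% among the CON_noP libraries, at 78.8%, 85.2%, 89.3% and 91.7% in MET_P, and in MET_noP at 81.8%, 81.9%, 82.2% and 89.3%. One CON_P library reached the MET range, and the other 7 CON libraries were below all 8 MET libraries. It was chosen after its values were seen. Without single libraries the count of 4 genes for diet became 9 without CON_P library 4, 8 without CON_noP library 1 or 3, 7 without MET_noP library 2 or 3 and 2 without MET_P library 1. IL10RA, CCL3 and IL10 were next among the lower genes and IL4I1 among the higher ones, short of the limit.

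**Figure D4:**
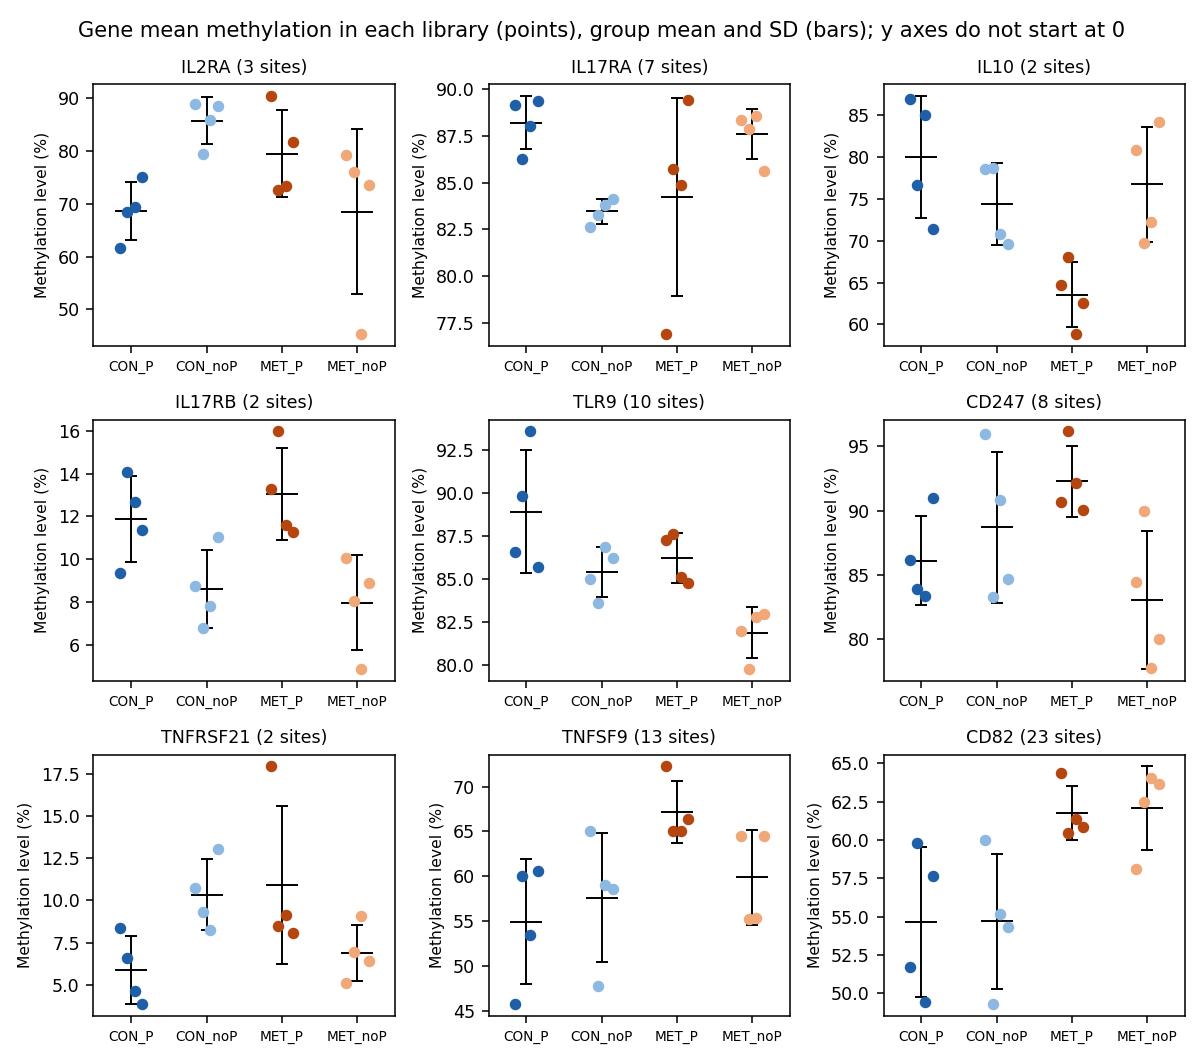
Gene mean methylation in percent (y axes, not from 0) of 9 member genes in each of the 16 libraries (points) by group (x axes), with the group mean and SD (bars). IL10 is lowest in the 4 MET_P libraries, and CD82 is higher in 7 of 8 MET libraries than in all CON libraries. IL2RA has higher means in CON_noP and MET_P than in CON_P and MET_noP, with a single MET_noP library far below the others.

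The difference between pregnant and non-pregnant cows was compared between the diets by the interaction term over all 16 libraries. It passed an unadjusted p of 0.05 in 13 member genes, 10 with a higher value of pregnancy under methionine than under control (10.1%, against 2.55% of all genes) and 3 with a lower one (3.03%, against 2.86%), and 0 passed after adjustment. The lowest adjusted p of a member was 0.877. In the 10 genes the CON_noP and MET_P means were both above the CON_P and MET_noP means, and in the 3 genes both below. The same order of means held in 27 and 16 of the 99 members (27.3% and 16.2%), against 15.6% and 18.8% of all genes. A low p of the interaction favours this order.

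The 10 genes were IL2RA, IL22RA1, CD6, CD74, CD163L1, CD247, TNFRSF1A, TNFRSF21, IRF2 and IRF9, and the 3 were IL10, IL17RA and IRF4. IRF9 and IRF2 were not chosen by the rule for named genes and were named because they complete the count. IL2RA had the widest crossing, with 68.6% ± 5.47 in CON_P, 85.7% ± 4.41 among the CON_noP libraries, 79.5% ± 8.28 in MET_P, and in MET_noP 68.5% ± 15.6 (difference of differences 28.02 percentage points, M 2.25, SE 0.65, limma unadjusted p = 0.00360, adjusted p = 0.877). All 3 of its sites went that way. However, 1 MET_noP library (45.3%) lay far below the others (73.5% to 79.2%), and the MET_P and MET_noP libraries overlapped. IRF9, a factor of the type I interferon response, had 35.7% ± 8.97, 48.4% ± 10.2, 45.0% ± 5.25 and 35.5% ± 9.42 in the same order, and its libraries overlapped in each pair of groups. IL10 had 80.01% ± 7.26, 74.4% ± 4.87, 63.5% ± 3.90 and 76.8% ± 6.88 (M -1.42, SE 0.45, adjusted p = 0.893).

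TNFRSF21 had 3.87%, 4.67%, 6.602% and 8.36% in CON_P, 8.23%, 9.32%, 10.8% and 13.1% among the CON_noP libraries, 8.08%, 8.49%, 9.16% and 17.9% in MET_P, and in MET_noP 5.13%, 6.42%, 6.98% and 9.09%. Its whole range lay at the low end, and 1 MET_P library stood apart at 17.9%. CD6 crossed at the other end, between 91.0% and 98.99% over the 16 libraries, where an M value stretches small differences in percent. Of the marker lists, the epithelial one had gene means of 27.7% ± 4.61 in CON_P, 26.6% ± 2.77 among the CON_noP libraries, 26.03% ± 2.44 in MET_P, and in MET_noP 28.9% ± 6.67. Its difference of differences was -4.02 percentage points, against 2.79 for the leukocyte and 0.34 for the stromal list. Over sites these were -7.93, 0.98 and 1.18. The part of these lists in the genes was not tested. Leaving out single libraries gave between 10 and 19 genes.

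**Figure D5:**
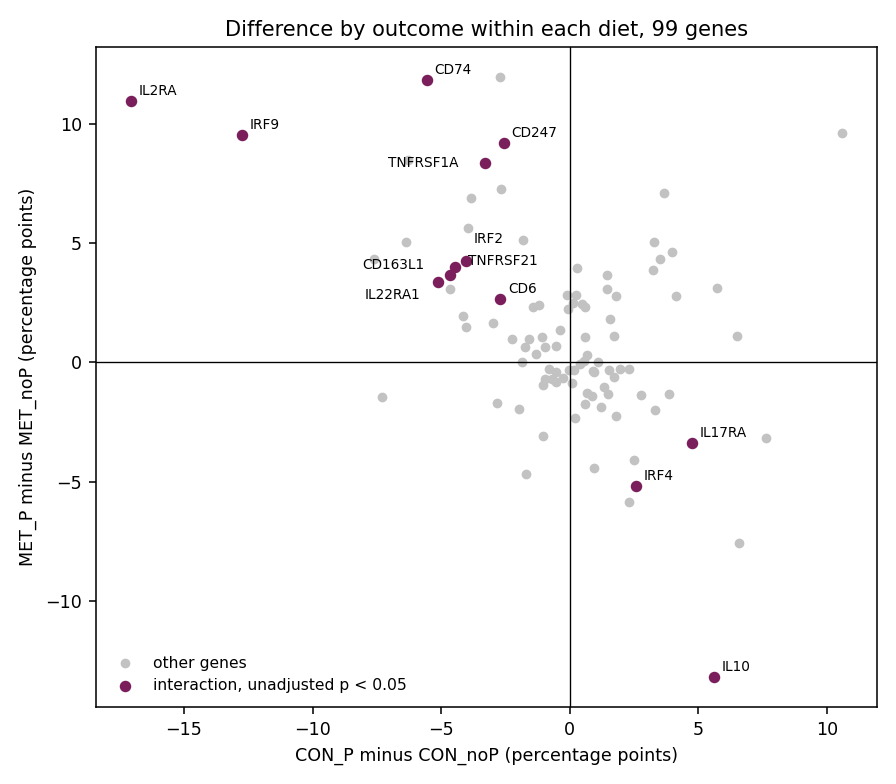
Difference between pregnant and non-pregnant groups under control (x axis) and under methionine (y axis), in percentage points of gene mean methylation, for the 99 member genes. The 13 named genes pass an unadjusted p of 0.05 for the interaction and lie at the upper left (10) and the lower right (3), where the sign differs between the diets.

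Other genes of these pathways were counted from a list of 95, mostly adapters, kinases and transcription factors downstream of the receptors, with some further ligands and receptors such as CX3CL1, CX3CR1, CSF1 and LIFR, and 46 of them had at least 2 sites. At the unadjusted limit 2 were higher in CON_P than in CON_noP (4.35%, against 2.16% of all genes), 1 in MET_P than in MET_noP (2.17%, against 3.67%) and 2 in MET_P than in CON_P (4.35%, against 5.47%). In MET_noP 4 were higher than in CON_noP (8.70%, against 4.75%) and 1 lower (2.17%, against 1.64%). Over both diets 1 was higher with pregnancy (2.17%, against 2.51%), over both outcomes 6 were higher under methionine (13.04%, against 7.34%), and 1 had a negative interaction (2.17%, against 2.86%). The 6 were MAVS, SOCS6, CX3CR1, STAT6, JAK1 and CSF1. The chemokine gene CX3CL1 entered 3 of these counts, and 0 genes passed after adjustment.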

How the data were processed

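The authors trimmed RRBS reads with Trim Galore, aligned them with Bismark to ARS-UCD1.2 and deposited, in 1 table, the percent methylation of each cytosine position in each of 16 libraries, with a gene symbol and without read counts, after they had dropped positions under a minimum count or with a value of zero. Columns were assigned to groups by the group name above them. Each percent p was transformed to M = log2((p + 1)/(100 - p + 1)). Sites, and means over the sites of genes with at least 2, were tested with limma 3.58.1 in R 4.3.3 on the 8 libraries of 2 groups, or on all 16 for outcome, diet and their interaction, and adjusted (Benjamini-Hochberg) over 199395 sites or 8719 genes. Single genes were also compared by two-sided exact permutation tests. Of the tests, only the limma fit of sites was run on simulated data, for CON_P against CON_noP.

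The members and gene lists were chosen with earlier results of these data known. Named were, per comparison, up to 4 genes and 3 sites in each direction with the lowest p, per role the genes with most sites and the lowest and highest level, genes with at least 15 sites, and 6 genes of textbook role. IRF9 and IRF2, the genes with separate libraries or at p below 0.05 beyond these, the stretches and the example genes of the roles were named after their values were seen. Alternatives were untransformed percentages, an offset of 0.1, moderation with trend, sites at 10% to 90%, centred libraries, 1 model for all groups, genes with at least 5 sites, medians over sites, positions of both strands merged, each library left out and, added after the values were seen, a block for sets of consecutive column numbers. Summaries used Python 3.11.15, pandas 2.3.3, scipy 1.17.1 and matplotlib 3.10.9.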

Additional observations from a re-analysis of the deposited data

Results flagged for a closer look

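Among the 248 groups of 4 libraries of the 62 named genes, 16 had 1 library far from the other 3 by Dixon's test, which chance gives in about 1 of 20 groups. A library stood below the others for CD177 in CON_noP (73.0%, others 88.1% to 91.0%), CD47 in CON_noP (95.1%, others from 98.6%), CD6 in MET_noP (91.0%, others from 96.5%), IL18RAP in CON_noP (81.5%, others from 86.7%), IL2RA in MET_noP (45.3%, others from 73.5%), IL4I1 in CON_P (50.1%, others from 61.8%) and in MET_noP (55.1%, others from 67.3%), IRF8 in CON_P (83.3%, others from 89.6%), TLR2 in CON_P (3.57%, others from 10.6%) and TNFRSF1A in CON_noP (49.4%, others from 56.2%). It stood above them for CCR10 in CON_P (61.8%, others to 46.4%), IL10RA in CON_noP (100%, others to 88.6%), IL22RA1 in MET_P (97.8%, others to 94.3%), NLRP3 in MET_noP (97.2%, others to 94.6%), TNFRSF21 in MET_P (17.9%, others to 9.16%) and TNFRSF6B in MET_noP (28.8%, others to 15.8%). CON_P libraries 2 and 3, CON_noP libraries 2 and 4 and MET_noP library 3 each accounted for more than 1 of these.

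The difference by outcome differed between the diets at an unadjusted p of 0.05 in 13 member genes (limma interaction term, 16 libraries), and none of them passed after adjustment (adjusted p from 0.877). On the M scale, the difference under methionine minus that under control was 1.72 for CD6, 1.43 for TNFRSF21, 2.25 for IL2RA, 1.62 for IL22RA1, 1.36 for IRF9, 1.64 for CD247, 2.46 for CD163L1, 0.67 for TNFRSF1A, 1.65 for CD74, 0.73 for IRF2, -1.42 for IL10, -0.88 for IL17RA and -0.46 for IRF4. The sign of the outcome difference in percent was opposite in the diets for all 13.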

How the results depend on the processing

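The replicate numbers of the labels could not be tied to columns, whose own numbers form 4 consecutive sets with 1 library of each group. Libraries of 1 set did not deviate together from their group means over the genes (r from -0.114 to 0.135, median 0.0093, in 24 pairs, against -0.263 to 0.263 in 72 pairs of different sets), so the sets were not taken as pairs. With the set as a replicate block, which was chosen after seeing the data, 34, 48, 46 and 57 member sites and 10, 8, 13 and 7 member genes passed the unadjusted limit in the 4 comparisons in the order of the report, and 5, 4 and 13 genes for outcome, diet and interaction, each within 1.5 times the count given. Under every alternative the number of member sites or genes past an adjusted p of 0.05 was 0, except for the offset of 0.1, which gave 1 site each in 3 comparisons (IL18RAP site 7222663 with an M difference of 5.81, CD47 site 52759278 with -4.37 and IRF5 site 92904291 with -5.86). Counts at an unadjusted p of 0.05 stayed within 1.5 times the value given in 171 combinations of comparison and alternative and moved beyond it in 33. With sites at 10% to 90%, member sites fell from 37 to 17 (CON_P against CON_noP) and from 58 to 36 (MET_P against CON_P), and member genes gave 2, 6, 8 and 4 in the 4 comparisons in the order of the report and 3 for outcome. With at least 5 sites per gene, 51 members were left and gave 1, 6, 8 and 4 genes, 3 for outcome and 5 for the interaction. Untransformed percentages gave 4 genes in CON_P against CON_noP, and medians over sites 5 in MET_noP against CON_noP and 7 for diet, and turned the M difference of TLR9 in CON_P against CON_noP to -0.17. Leaving out 1 library at a time gave 34 to 57, 37 to 74, 41 to 95 and 40 to 85 sites and 5 to 12, 6 to 11, 8 to 21 and 4 to 9 genes in the 4 comparisons, 5 to 8 genes for outcome, 2 to 9 for diet and 10 to 19 for the interaction. Fewer features are tested under the stricter limits, and otherwise the cause was not tested. Medians over sites moved the level of 13 of the named genes by more than their SD within groups. The depth of a site is known only to lie above the minimum count of the methods, so its counting error was not given.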
